A study of Homo sapiens with 7 samples.

Results

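The 6 secreted matrix genes LAMB1, FBN1, MMP2, SPOCK1, EDIL3 and ADAMTS1 were followed along their length in nascent RNA from human cells without and with CFAP20, a protein known from cilia. They are 6 of 2083 protein-coding genes that could be placed in the measured windows, and 6 of the 1756 whose mean signal was high enough to be tested. The genes were chosen by their body signal in CFAP20-KO against WT, so that difference is given as a description, without a test. By that same measure ADAMTS1 did not bear out a difference: its CFAP20-KO and WT values overlapped, and the other 5 genes' values did not. Nascent RNA was labelled with a 30 min pulse of 2 mM bromouridine (BrU), captured with an antibody and sequenced as 151 bp paired reads (BrU-seq). All libraries came from RPE1, a line of immortalised human cells of the retinal pigment epithelium, with an inducible Cas9 (iCas9) and a double knockout named p53/puro-dKO that every group carries. The groups were CFAP20-KO (3 libraries), rescue, which is CFAP20-KO with CFAP20-GFP (1 library), and WT, the same line with CFAP20 (3 libraries). The labels do not say whether CFAP20-KO is 1 clone or whether the replicates are separate cultures. The p-values below therefore set group differences against the spread of these libraries, which can be a technical matter. The rescue library has values for these genes only in the splice table.

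Cells secrete the extracellular matrix and remodel it, and each of these genes encodes a piece of that system. Laminins are trimers of one alpha, one beta and one gamma chain that polymerise into the sheet of the basement membrane, and LAMB1 encodes a beta chain. FBN1 encodes fibrillin-1, the backbone of the microfibrils on which elastic fibres form and which hold latent TGF-beta. MMP2 encodes gelatinase A, a metalloproteinase that cleaves type IV collagen and denatured collagens. ADAMTS1 encodes a secreted metalloproteinase with thrombospondin repeats that cleaves proteoglycans such as versican. SPOCK1 encodes testican-1, a proteoglycan of the SPARC family, and EDIL3 encodes DEL-1, a secreted ligand of integrins with an RGD motif. The retinal pigment epithelium rests on Bruch's membrane, to which it adds matrix. BrU-seq reads RNA made during the pulse, introns included, so its signal follows transcription across introns and past the end of a gene, before processing sets the amount of mature RNA.

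Promoters are shown for LAMB1, the gene with lower signal in CFAP20-KO, and for FBN1 and EDIL3, 2 genes with higher signal. RefSeq promoter entries (GRCh38.p14, 250 bases before to 50 after the annotated start) matched 3 of the 6 genes, and MMP2, SPOCK1 and ADAMTS1 were not matched. The LAMB1 entry is chr7:108003112-108003411, the FBN1 entry chr15:48644921-48645220 and the EDIL3 entry chr5:84384831-84385130, all on the minus strand and written 5′ to 3′. Capitals mark matches to the GC box GGGCGG on either strand, where neighbouring matches may overlap.
LAMB1: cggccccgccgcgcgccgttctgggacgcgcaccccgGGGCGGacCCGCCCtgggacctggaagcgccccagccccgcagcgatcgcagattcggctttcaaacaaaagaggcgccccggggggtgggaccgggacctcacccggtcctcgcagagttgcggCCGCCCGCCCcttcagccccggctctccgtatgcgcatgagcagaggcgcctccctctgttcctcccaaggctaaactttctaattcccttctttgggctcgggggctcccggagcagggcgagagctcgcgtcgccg
FBN1: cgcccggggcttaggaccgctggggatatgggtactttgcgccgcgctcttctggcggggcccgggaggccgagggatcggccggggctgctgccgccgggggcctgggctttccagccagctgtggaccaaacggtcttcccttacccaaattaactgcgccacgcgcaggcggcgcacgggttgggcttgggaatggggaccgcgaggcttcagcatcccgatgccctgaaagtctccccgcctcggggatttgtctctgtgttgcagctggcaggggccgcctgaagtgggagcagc
EDIL3: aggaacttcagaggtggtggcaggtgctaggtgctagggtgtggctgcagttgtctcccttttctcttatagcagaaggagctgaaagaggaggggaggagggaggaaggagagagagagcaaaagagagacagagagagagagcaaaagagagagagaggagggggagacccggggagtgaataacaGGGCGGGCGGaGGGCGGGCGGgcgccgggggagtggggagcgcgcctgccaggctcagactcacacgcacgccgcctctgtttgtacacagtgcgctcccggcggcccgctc
LAMB1 and EDIL3 each hold 4 matches to GGGCGG and the FBN1 entry holds none, against 44.6% of 27305 promoters of the same length that hold at least 1. None of the 3 holds the TATA box letters TATAAA on either strand, found in 11.95% of those promoters. The AP-1 site letters TGANTCA, found in 7.76%, and the E-box letters CACGTG, found in 7.43%, are also not in these windows. Their GC content was 71% for LAMB1, 68.3% for FBN1 and 62.7% for EDIL3, against a median of 58.3% over all entries. The RefSeq start of FBN1 lies 739 bp inside the start used for its signal, and the starts of LAMB1 and EDIL3 are the same in both annotations. Most of the FBN1 entry therefore lies in intron 1 (48644950 to 48645574) of the transcript used for its signal. The letters around the FBN1 start used for the signal were not read.

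Signal is the authors' scaled coverage of the transcribed strand, as a mean per 200 bp bin, so levels of different genes are per length. The smallest step of this scale, which is smaller in deeper libraries, was 0.393, 0.16 and 0.18 in CFAP20-KO replicates 1, 2 and 3, against 0.3, 0.0733 and 0.187 in WT replicates 1, 2 and 3. Column names of the splice table give each library 1 of 3 numbers, called runs here. CFAP20-KO replicate 1 and WT replicate 1 share run 1, CFAP20-KO replicates 2 and 3 share run 3 with WT replicate 3, and the rescue library shares run 2 with WT replicate 2. Differences are therefore also given within runs 1 and 3. In log2 body signal CFAP20-KO replicates 2 and 3 correlated at 0.998, and every other pair of libraries at 0.824 to 0.969. Whether these 2 are separate cultures is not stated, so the 3 CFAP20-KO libraries may not be independent of each other. Over all 1756 genes the median log2 difference, CFAP20-KO minus WT, was 0.17, and -0.02 after each library was centred on its own median. Differences below are on the log2(signal + 0.0832) scale and stand against that median of 0.17.

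LAMB1 was the gene of the 6 with lower signal in CFAP20-KO, by 2.33-fold, while FBN1, MMP2, SPOCK1 and EDIL3 were 1.96-fold, 2.63-fold, 2.5-fold and 2.30-fold higher. ADAMTS1, the most strongly transcribed, differed by 1.10-fold with overlapping groups. In CFAP20-KO the order of mean signal was ADAMTS1 (122 ± 17.9), MMP2 (53.6 ± 14.6), FBN1 (14.3 ± 2.37), SPOCK1 (6.19 ± 1.47), EDIL3 (5.05 ± 0.548) and LAMB1 (3.95 ± 0.609), and in WT it was ADAMTS1 (117 ± 46.0), MMP2 (20.7 ± 7.40), LAMB1 (9.25 ± 0.406), FBN1 (7.32 ± 1.75), SPOCK1 (2.47 ± 0.879) and EDIL3 (2.17 ± 0.459; SD, n = 3). LAMB1 stood last of the 6 in CFAP20-KO, and above FBN1, SPOCK1 and EDIL3 in WT. SPOCK1 and EDIL3 overlapped each other across libraries in both groups, and the other neighbours in either order did not overlap. With centred libraries the differences were -1.41 for LAMB1, 0.78 for FBN1, 1.20 for MMP2, 1.13 for SPOCK1, 1.01 for EDIL3 and -0.05 for ADAMTS1. Over all genes, 17.7% did not overlap between groups, 12.8% with every CFAP20-KO library above every WT library and 4.9% with every one below, and this is the measure that chose the 5 genes. The fit without a covariate called 0 of 1756 genes (limma, smallest adjusted p = 0.12, 147 genes at an unadjusted p under 0.05). With run as a covariate, where WT replicate 2 has no partner and adds nothing, 10.9% of genes were called, 108 higher (6.15%) and 83 lower (4.73%), the 5 genes other than ADAMTS1 among them by their choice. When libraries were also centred, 41 genes were called higher and 118 lower, and FBN1 was no longer among them (limma adjusted p = 0.0581).

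**Figure D1:**
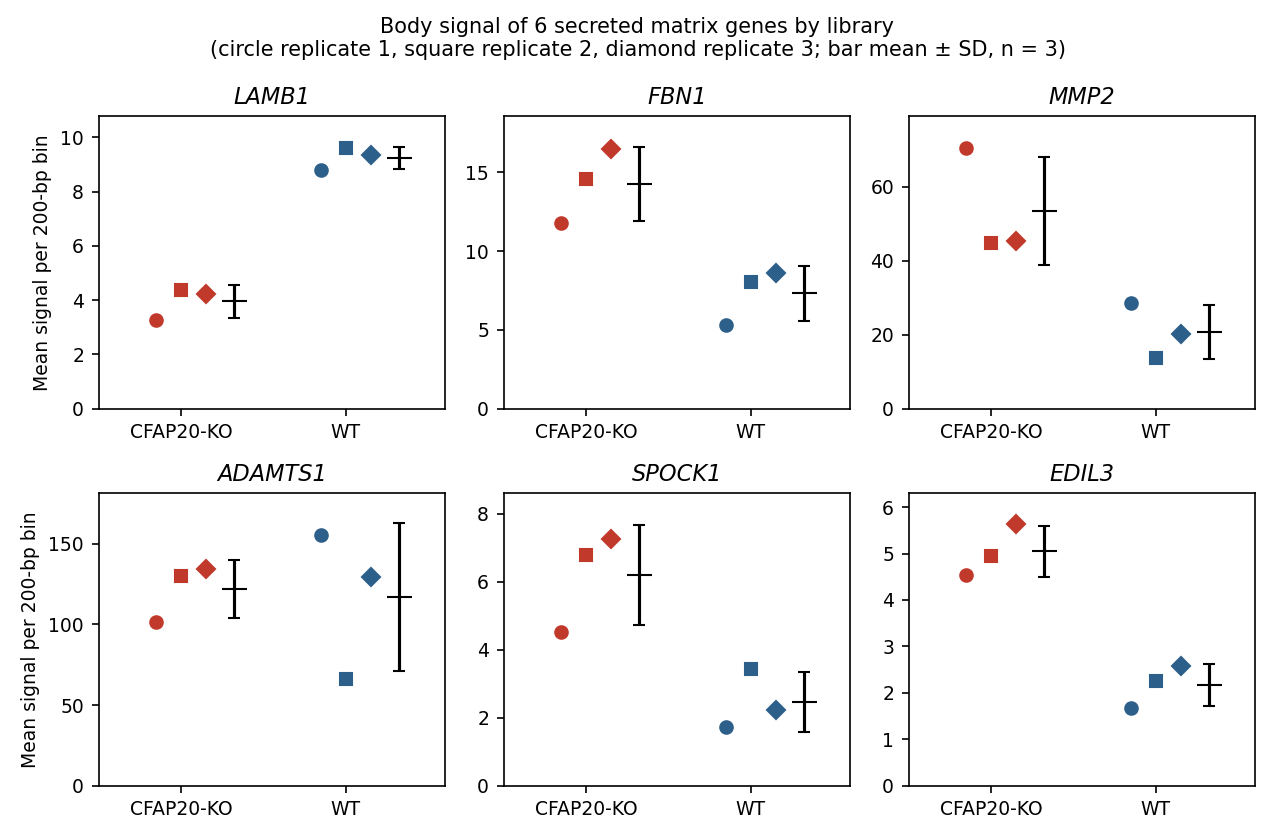
Mean signal per 200 bp bin over the measured body (vertical axes, linear from 0) in each CFAP20-KO and WT library for the 6 genes, with marker shapes for replicates and bars for the mean ± SD (n = 3). LAMB1 lies lower in CFAP20-KO (3.25 to 4.36) than in WT (8.80 to 9.59), FBN1, MMP2, SPOCK1 and EDIL3 lie higher, and the ADAMTS1 groups overlap.

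LAMB1 lies on chromosome 7 at 107923799 to 108003161 (hg38, minus strand, ENSG00000091136), and all of its 79.4 kb was measured. Its body signal was 3.25, 4.36 and 4.24 in CFAP20-KO replicates 1, 2 and 3, against 8.80, 9.59 and 9.36 in WT replicates 1, 2 and 3. Every CFAP20-KO library was below every WT library, and the WT libraries stood closest together of any of the 6 genes relative to their mean. The log2 difference was -1.22, and -1.41 within run 1 and -1.11 within run 3. The lower signal was present from the start: the first 3 kb held 17.8, 10.4 and 9.56 in CFAP20-KO against 47.7, 19.6 and 40.1 in WT, a log2 difference of -1.46. In 5 equal sections from start to end the differences were -1.22, -0.82, -1.27, -1.65 and -1.21, and in each section the groups did not overlap. Bins that touch an exon and bins that do not differed by -1.05 and -1.26. Signal continued past the annotated end, with 0.974 ± 0.352 in CFAP20-KO against 2.57 ± 0.919 in WT over the first 2 kb and 0.210 ± 0.0935 against 0.724 ± 0.267 over the next 8 kb (SD, n = 3), differences of -1.32 and -1.46. From 2 to 10 kb before the start the signal was at most 0.045 in every library. The stretch past the end therefore carried signal, lower in CFAP20-KO, that the stretch before the gene did not.

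FBN1 lies on chromosome 15 at 48408313 to 48645709 (minus strand, ENSG00000166147), and its first 66.2 kb, 27.9% of its length, lay inside the window. Its body signal was 11.8, 14.6 and 16.5 in CFAP20-KO, against 5.33, 8.01 and 8.62 in WT, without overlap. The log2 difference was 0.97, and 1.13 within run 1 and 0.84 within run 3. On the log2 scale FBN1 differed least near its start. The median over all genes was also lower there, at -0.02 over the first 3 kb against 0.17 over the body. Over the first 3 kb the signal was 60.9, 32.7 and 38.0 in CFAP20-KO against 32.9, 18.8 and 33.8 in WT, where CFAP20-KO replicate 2 lies below WT replicates 1 and 3 and the difference within run 3 was 0.06. Along 5 equal sections the log2 differences were 0.61, 0.92, 1.40, 1.41 and 1.11, and the groups overlapped in the last section only. The first section held 24.9 ± 1.35 in CFAP20-KO against 16.5 ± 3.11 in WT, and the fourth 11 ± 3.41 against 4.16 ± 1.55 (SD, n = 3). The test of this shape is given with the other genes below.

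MMP2 lies on chromosome 16 at 55479198 to 55506691 (plus strand, ENSG00000087245), and all of its 27.5 kb was measured. Its body signal was 70.4, 44.9 and 45.3 in CFAP20-KO, against 28.5, 13.7 and 20.1 in WT. The groups did not overlap, and in both the library of run 1 was the highest. The log2 difference was 1.40, and 1.30 within run 1 and 1.17 within run 3. The difference was spread over the gene, at 1.33, 1.27, 1.26, 1.48 and 1.65 in 5 equal sections, each without overlap. It continued past the annotated end, where the first 2 kb held 22.0, 17.3 and 15.6 in CFAP20-KO against 8.73, 5.23 and 6.23 in WT, a difference of 1.45. Before the start the picture was another one: 2 to 10 kb upstream the signal was 3.37, 3.92 and 4.0 in CFAP20-KO against 3.16, 0.886 and 5.43 in WT, with overlapping groups and a difference of -0.45 within run 3. LPCAT2 follows MMP2 on the same strand, so no region farther past the end was read. MMP2 stood at the 97.8 percentile of the tested genes by mean signal in CFAP20-KO and at the 92.4 percentile in WT.

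ADAMTS1 lies on chromosome 21 at 26835755 to 26845409 (minus strand, ENSG00000154734), and all of its 9.66 kb was measured. Its body signal was 101, 130 and 134 in CFAP20-KO, against 156, 66.1 and 129 in WT. WT replicate 2 was the lowest of the 6 libraries and WT replicate 1 the highest, with the 3 CFAP20-KO libraries between them. The log2 difference was 0.14, and -0.62 within run 1 and 0.03 within run 3, and with run as a covariate it was -0.25. The first 3 kb held 195, 195 and 190 in CFAP20-KO against 296, 78.5 and 222 in WT, so the WT libraries spread there by more than the CFAP20-KO libraries. The last 2 kb held 47.3, 95.02 and 103 in CFAP20-KO against 59.2, 56.7 and 71.1 in WT, and the first 2 kb past the end held 11 ± 6.11 in CFAP20-KO against 8.37 ± 4.77 in WT (SD, n = 3). The groups overlapped in every region read. ADAMTS1 stood at the 99.3 percentile of tested genes in CFAP20-KO and at the 98.9 percentile in WT.

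SPOCK1 lies on chromosome 5 at 136975298 to 137499326 (minus strand, ENSG00000152377), and its first 96.8 kb, 18.5% of 524 kb, was measured. Its body signal was 4.52, 6.80 and 7.27 in CFAP20-KO, against 1.74, 3.45 and 2.23 in WT, without overlap. The log2 difference was 1.32, and 1.34 within run 1 and 1.62 within run 3. The difference was nearly even over the measured stretch, at 1.36, 1.31, 1.31, 1.33 and 1.33 in 5 equal sections, while the signal itself dropped to 3.21 ± 0.954 in the last section against 14.1 ± 2.14 in the first in CFAP20-KO, and to 1.33 ± 0.822 against 5.50 ± 0.997 in WT (SD, n = 3). In sections 2, 3 and 5 the groups overlapped, because WT replicate 2 lay above CFAP20-KO replicate 1. Over the first 3 kb they did not, with 20.6, 18.2 and 18.1 in CFAP20-KO against 8.42, 6.06 and 8.14 in WT. SPOCK1 stood at the 67.5 percentile of tested genes in CFAP20-KO and at the 40.4 percentile in WT.

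EDIL3 lies on chromosome 5 at 83940554 to 84384880 (minus strand, ENSG00000164176), on the same chromosome as SPOCK1, and only its first 25.9 kb, 5.82% of 444 kb, was measured. Its body signal was 4.55, 4.96 and 5.63 in CFAP20-KO, against 1.67, 2.26 and 2.58 in WT, without overlap. The log2 difference was 1.20, and 1.40 within run 1 and 1.01 within run 3. Near the start the groups stood apart, with 26.2, 11.7 and 11.6 in CFAP20-KO against 7.80, 2.99 and 7.91 in WT over the first 3 kb. Farther in they did not: the log2 differences of 5 equal sections were 1.47, 1.39, 0.54, 0.80 and 1.04, and the last 3 sections overlapped. In the third section CFAP20-KO replicate 1 had 0.908, below all 3 WT libraries at 1.0, 2.32 and 1.34. CFAP20-KO replicate 1 is also the library with the coarsest step, 0.393 in a single bin, while this section averages 26 bins. The part of the step in this value was not tested.

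**Figure D2:**
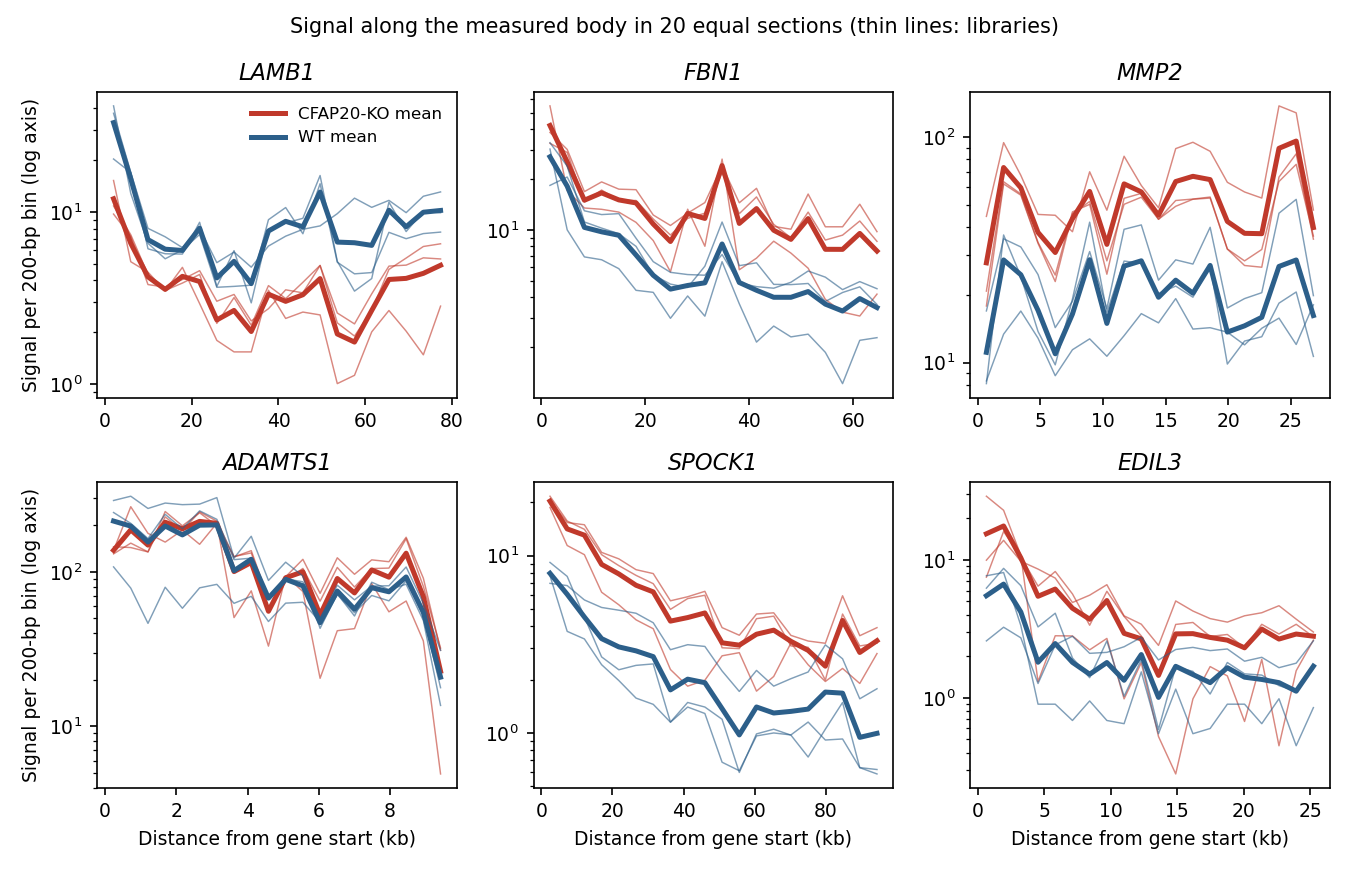
Signal per 200 bp bin (log axis) in 20 equal sections of the measured body against distance from the gene start in kb, with thick lines for the mean of 3 libraries and thin lines for single libraries. The CFAP20-KO mean stays below the WT mean along LAMB1 and above it along FBN1, MMP2, SPOCK1 and EDIL3, and the lines cross along ADAMTS1.

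Whether the signal was distributed differently along the genes was read from the log2 ratio of the later to the earlier part of the measured body, split at its midpoint, a measure that the body mean does not fix. Over 1592 genes with at least 10 kb measured, 5 of the 6 genes among them, the limma fit called 0 genes (smallest adjusted p = 0.995, 47 at an unadjusted p under 0.05), against 0.44% with same-numbered replicates as pairs (2 higher and 5 lower) and 3.96% with run as a covariate (34 higher and 29 lower). None of the 5 genes was among those called in these 3 fits. FBN1 had ratios of -1.06, -0.49 and -0.46 in CFAP20-KO, against -1.51, -1.09 and -1.10 in WT. Each CFAP20-KO library was above each WT library, narrowly so for CFAP20-KO replicate 1, as was the case for 5.9% of the genes, and 9.99% did not overlap in either direction. The FBN1 difference was 0.57 (SE 0.26), 0.44 within run 1 and 0.63 within run 3, with an adjusted p of 0.995 in limma, 0.368 with the replicate block and 0.0769 with run as a covariate. It passed in 1 alternative, chosen after seeing the data, with run as a covariate and centred libraries (0.51, limma adjusted p = 0.0368), where 12.6% of all genes passed (110 higher and 91 lower). For LAMB1 the difference was -0.31 (SE 0.30), for MMP2 0.24 (SE 0.24), for SPOCK1 0.05 (SE 0.28) and for EDIL3 -0.51 (SE 0.50), each with overlapping groups and a limma adjusted p of 0.995. The LAMB1, MMP2, SPOCK1 and EDIL3 differences were smaller than or close to 1 standard error, and without CFAP20-KO replicate 1 those of LAMB1 and EDIL3 were 0.00833 and 0.0103. Runs and ratio moved together. The median ratio over all genes was -1.0, -0.54 and -0.51 in CFAP20-KO against -0.88, -0.50 and -0.70 in WT, lowest in each group in its library of run 1. EDIL3 showed the same order, at -2.64, -1.26 and -0.91 in CFAP20-KO and -1.63, -0.24 and -1.41 in WT. The part of the runs in these ratios was not tested beyond the fits given here.

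**Figure D3:**
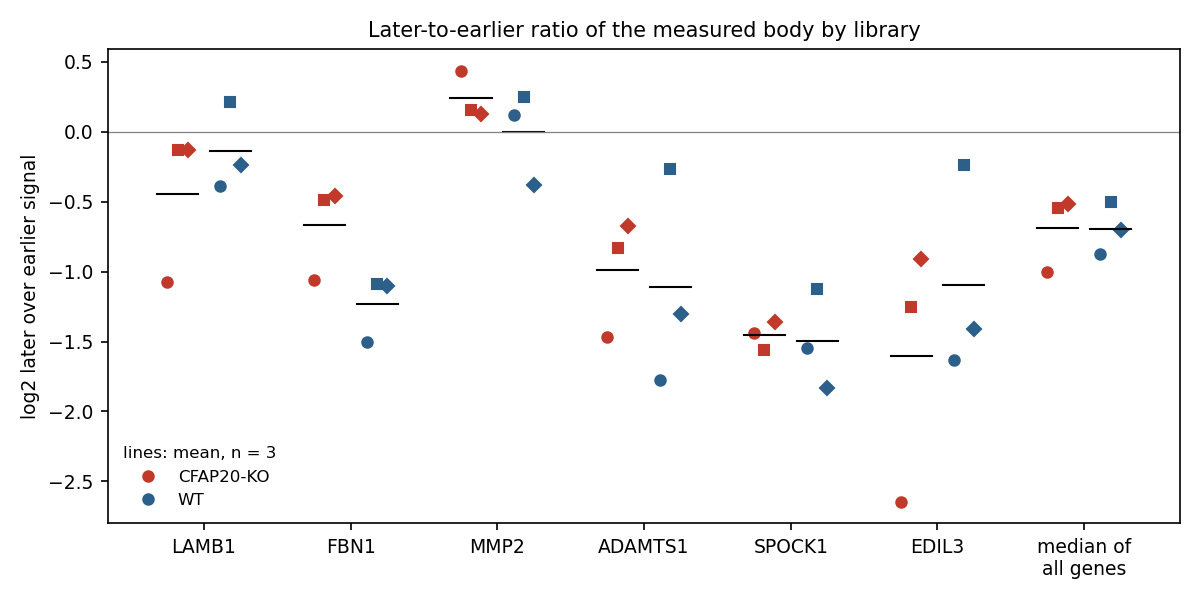
Log2 ratio of the signal in the later part of the measured body over the earlier part, for each CFAP20-KO and WT library of the 6 genes and for the median of all 1592 genes tested, with lines for the mean (n = 3). For FBN1 the CFAP20-KO values (-1.06 to -0.46) lie above the WT values (-1.51 to -1.09), and the groups overlap for the other genes.

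Splicing was read from the deposited splice index per intron, a fraction from 0 to 1 (its definition and depth were not stated). It covers 17 introns of 4 of the genes, 8 of MMP2, 5 of ADAMTS1, 3 of FBN1 and 1 of LAMB1, and none of SPOCK1 or EDIL3. Neither the 17 introns nor any other of the 6537 tested passed (limma, 0% called, smallest adjusted p = 0.833, 373 introns at an unadjusted p under 0.05), with adjusted p from 0.869 to 1 for the 17. The median index over the 17 was 0.690, 0.823 and 0.850 in CFAP20-KO against 0.781, 0.803 and 0.708 in WT, with overlap. All 8 MMP2 introns averaged lower in CFAP20-KO, with differences from -0.0621 to -0.00322, but 5 of the 8 were higher in CFAP20-KO within run 3 and 1 of the 8 within run 1, and without CFAP20-KO replicate 1 the averages of 7 of the 8 were higher. MMP2 intron 7 (chromosome 16, 55489824 to 55491800) was the least spliced of the MMP2 introns in both groups, with 0.347, 0.578 and 0.545 in CFAP20-KO against 0.500, 0.524 and 0.480 in WT. FBN1 intron 1 had 0.182, 0.649 and 0.603 in CFAP20-KO against 0.256, 0.641 and 0.487 in WT, low in both libraries of run 1. FBN1 introns 23 and 24 lie beyond the stretch whose signal was measured and had differences of 0.02 and 0.04. ADAMTS1 intron 1, of another transcript than its other introns, had 0.406, 0.316 and 0.363 in CFAP20-KO against 0.408, 0.429 and 0.375 in WT, and the 4 other ADAMTS1 introns lay between 0.643 and 0.916.

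The 1 LAMB1 intron, of another transcript than that used for the body signal, is intron 2 of ENST00000439976 (chromosome 7, 108002384 to 108002848). It had a low index in every library, and whether this junction is used in these cells was not tested. Its index was 0, 0.0351 and 0 in CFAP20-KO against 0.0563, 0.124 and 0.0359 in WT and 0.0973 in rescue. It was the 1 intron of the 17 whose groups did not overlap, by a margin of 0.0359 against 0.0351, where 11.1% of all introns did not overlap, and its limma adjusted p was 0.869. In the rescue library 15 of the 17 introns had a higher index than in WT replicate 2 of the same run, with a median difference of 0.07, against 59.7% of all introns that differed and a median of 0.01 over 6593 introns. MMP2 intron 7 had 0.731 in rescue against 0.524 in WT replicate 2, and ADAMTS1 intron 2 had 0.868 against 0.649. With 1 rescue library these differences have no replicate check.

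**Figure D4:**
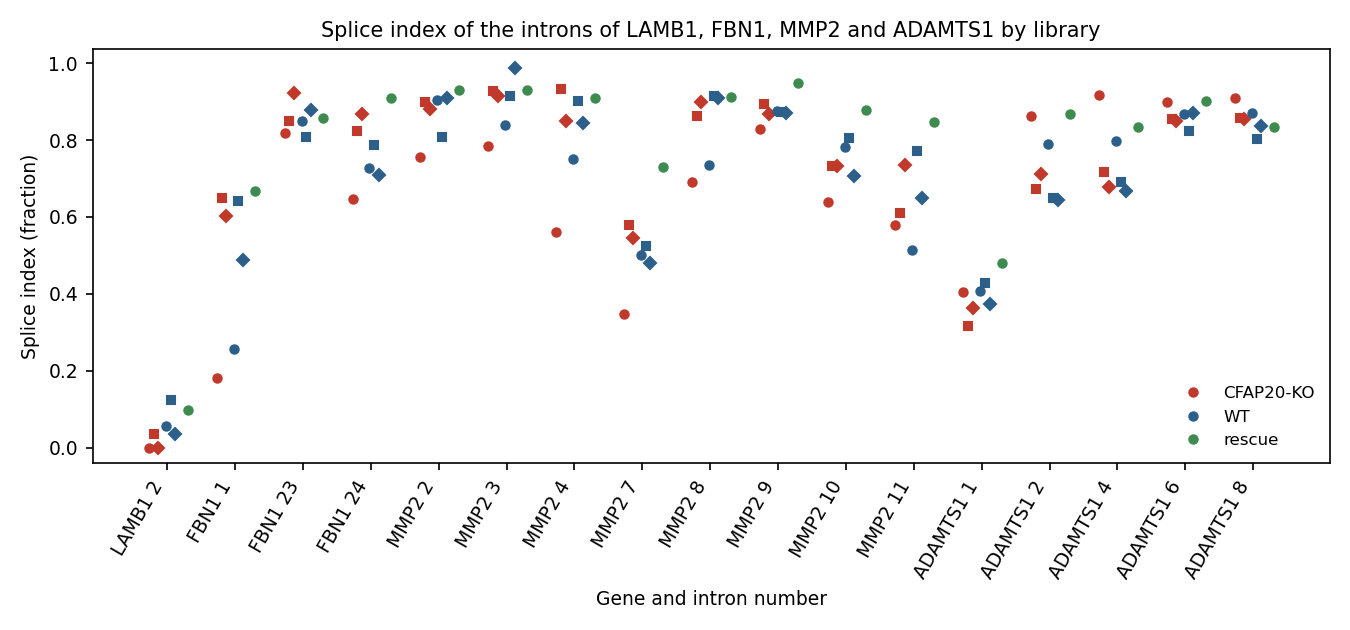
Splice index (fraction, 0 to 1) of 17 introns of LAMB1, FBN1, MMP2 and ADAMTS1 in each CFAP20-KO, WT and rescue library, with the gene and intron number on the horizontal axis and marker shapes for replicates. LAMB1 intron 2 lies near 0 in all libraries, MMP2 intron 7 and ADAMTS1 intron 1 lie lower than the other introns of their genes, and the groups overlap at 16 of 17 introns.

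The rest of the matrix system was read from 7 lists of matrix genes with 233 members in all, of which 48 were placed in windows and 40 tested, the 6 genes included. Without a covariate 0 of the 40 passed (limma), as of all genes. With run as a covariate 10 of 40 passed, 6 higher and 4 lower, and 5 of the 10 are genes chosen by this same difference. In the gene values that follow, differences are those of 3 against 3 libraries and adjusted p-values those of the fit with run as a covariate. Without the 6 genes 5 of 34 did (14.7%), 2 higher and 3 lower, against 10.9% of all genes, and 6 of 34 did not overlap between groups (17.65%), against 17.7%. The median log2 difference of the 34 was 0.24, against 0.17 over all genes. Outside the listed genes, the matrix lists therefore gave shares near those of all genes tested.

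Of the basement membrane list, HMCN1, encoding hemicentin-1, passed and was higher, with 0.344, 0.436 and 0.518 in CFAP20-KO against 0.113, 0.240 and 0.171 in WT (log2 difference 1.01, limma adjusted p = 0.0298 with run as a covariate). The peroxidasin gene PXDN and the nidogen gene NID2 did not pass, with differences of 0.53 and 0.81. Among microfibril and elastic fibre genes LOXL4, a lysyl oxidase, was lower at a low signal, with 0.118, 0.0683 and 0.0786 in CFAP20-KO against 0.425, 0.0926 and 0.181 in WT (-0.75, limma adjusted p = 0.0483). LOXL4 overlapped between groups when runs were pooled. Its relatives LOX and LOXL2 had differences of 0.24 and 0.78, and EFEMP1, encoding fibulin-3, had 1.07 and lay just outside the threshold (limma adjusted p = 0.0531). None of these 3 passed, although EFEMP1 and LOXL2 did not overlap between groups.

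Among proteases and inhibitors ADAM12, a membrane-bound and secreted disintegrin metalloproteinase, was higher (0.82, limma adjusted p = 0.0393), with 1.96, 3.56 and 3.90 in CFAP20-KO against 1.22, 2.07 and 1.83 in WT. TIMP4, an inhibitor of metalloproteinases, was lower (-0.67, limma adjusted p = 0.0298), with 1.15, 0.988 and 0.857 in CFAP20-KO against 2.27, 0.883 and 2.11 in WT. Both overlapped between groups when runs were pooled. ADAMTS12 and ADAM19 did not pass, with differences of 0.28 each. Of the proteoglycans and matricellular genes, the glypican gene GPC1 was lower (-0.66, limma adjusted p = 0.0298), with 7.18, 3.01 and 2.48 in CFAP20-KO against 14.01, 2.11 and 7.20 in WT. GPC1 overlapped between groups too, with WT replicate 2 below every CFAP20-KO library, and its difference with run as a covariate was -1.19. CCN2, MFGE8 and SPP1 did not pass, with differences of -0.30, -0.41 and -1.57, and SPP1 did not overlap between groups. No collagen or collagen-modifying gene (4 tested), integrin (3 tested) or TGF-beta pathway gene (4 tested) passed with run as a covariate. Their most strongly transcribed members had differences of -0.06 for PLOD2, 0.25 for CRTAP and 0.23 for COL13A1, of 0.17 for ITGB5, 0.42 for ITGAV and -0.39 for ITGB4, and of 0.15 for SMAD2, 0.10 for ACVR1B and 0.23 for ACVR1.

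**Figure D5:**
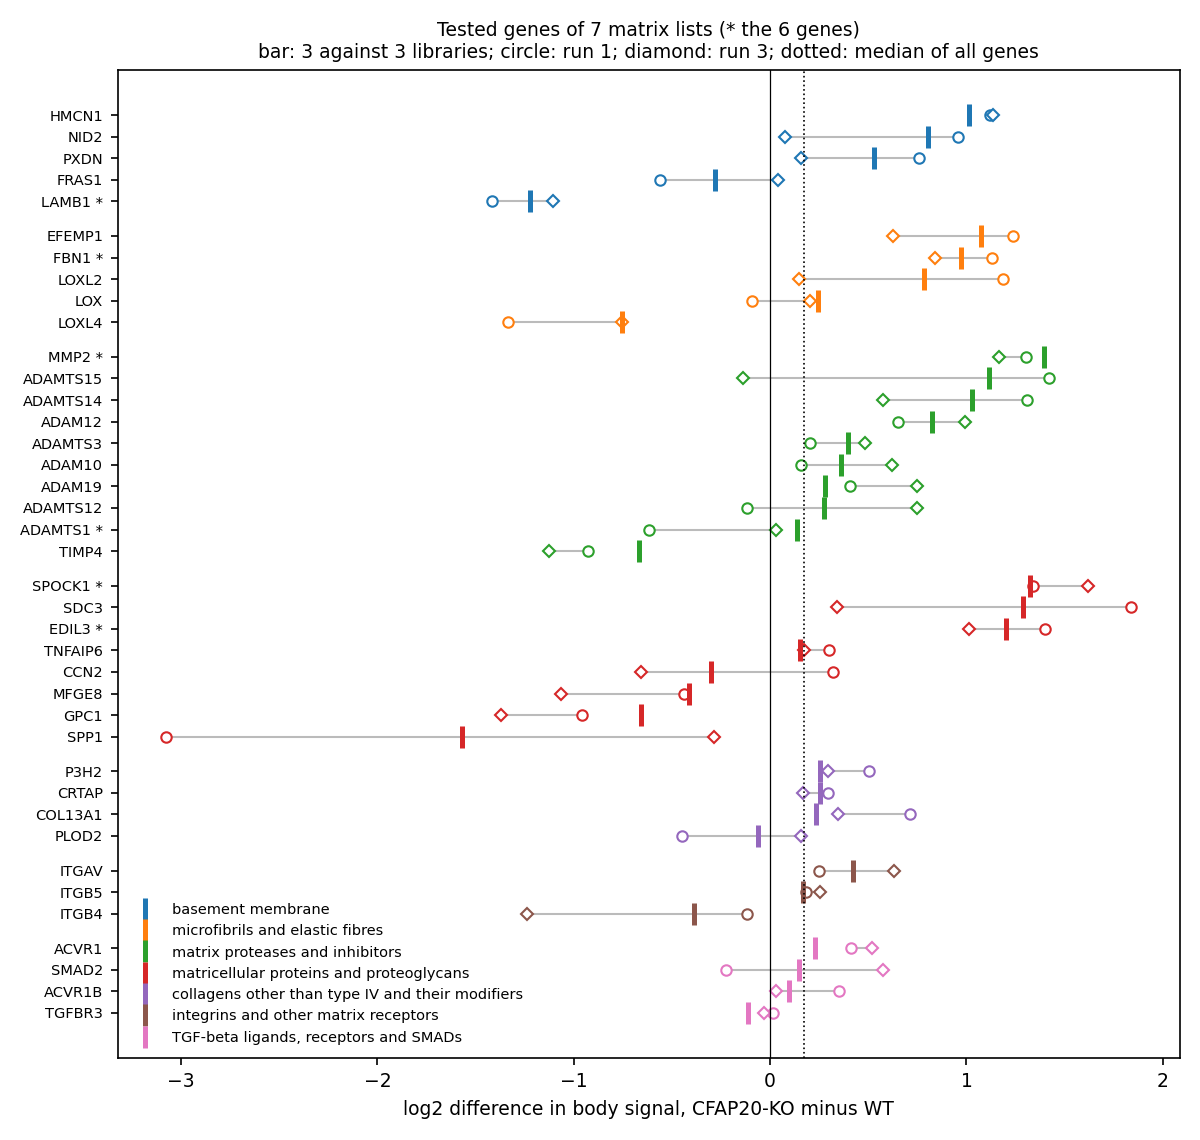
Log2 difference in body signal, CFAP20-KO minus WT, for 39 of the 40 tested genes of 7 matrix lists (colours), with a bar for 3 against 3 libraries, a circle for run 1 and a diamond for run 3, and a dotted line at the median of all genes (0.17). The 6 genes carry an asterisk, and LAMB1 lies at -1.22 and ADAMTS1 at 0.14 while the other 4 lie between 0.97 and 1.40.

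Across the 6 CFAP20-KO and WT libraries, the gene on another chromosome whose log2 signal followed that of FBN1 most closely was EDIL3 (Pearson correlation 0.983), itself 1 of the 6. The closest to LAMB1 was BHLHE41, a helix-loop-helix repressor (0.961), with 13.8, 13.9 and 13.3 in CFAP20-KO against 30.7, 28.0 and 26.3 in WT. The closest to EDIL3 was CNOT1 (0.988), with 7.80 ± 0.149 in CFAP20-KO against 6.02 ± 0.222 in WT, and the closest to MMP2 was DCAF1 (0.998), with 4.99 ± 0.390 in CFAP20-KO against 3.61 ± 0.457 in WT (SD, n = 3). Both followed the pattern at a smaller size, with log2 differences of 0.37 and 0.46. For ADAMTS1 it was VDAC2 (0.961), with 37.0, 38.9 and 38.0 in CFAP20-KO against 40.03, 30.1 and 39.7 in WT, where WT replicate 2 was again the lowest. These correlations are over 6 libraries that differ by group and run and are a description. FBN1 and EDIL3 were both chosen for higher signal in CFAP20-KO, which by itself raises their correlation. Shared regulation was not tested.

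The tested genes nearest to LAMB1 on chromosome 7 were SYPL1, 1811 kb away, and SRPK2, 2535 kb away, on one side, and PNPLA8, 467 kb away, and THAP5, 559 kb away, on the other. SYPL1 and THAP5 were lower in CFAP20-KO to a similar degree as LAMB1. SYPL1 had 1.76, 3.79 and 3.88 in CFAP20-KO against 5.05, 7.11 and 8.33 in WT (-1.15), and THAP5 had 4.83, 8.10 and 8.95 against 12.3, 15.6 and 17.5 (-1.08), without overlap and each with a limma adjusted p of 0.0298 with run as a covariate. PNPLA8, between LAMB1 and THAP5, had 0.689, 1.32 and 1.51 in CFAP20-KO against 1.35, 2.04 and 1.97 in WT (-0.62), with overlap. With run as a covariate its difference was -0.65 (limma adjusted p = 0.0697). SRPK2, the farthest, had 1.06, 0.905 and 0.873 in CFAP20-KO against 1.13, 2.18 and 0.825 in WT, with overlap. Its difference was -0.40 with runs pooled, -0.08 within run 1 and 0.10 within run 3. With run as a covariate it was 0.02 (limma adjusted p = 0.919). The part of the chromosomal neighbourhood in the LAMB1 difference was not tested.

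Of 15 retinal pigment epithelium markers 1 could be placed and tested, RLBP1, which is weakly transcribed here and was lower, with 0.109, 0.0166 and 0.0434 in CFAP20-KO against 0.362, 0.126 and 0.177 in WT (-1.11, limma adjusted p = 0.0323 with run as a covariate), so the labelled cell type could be checked against 1 marker only. Of 18 markers of other cells 4 were tested. The epithelial factor ELF3 passed and was lower (-0.48, limma adjusted p = 0.0484), with 0.0776 to 0.226 in CFAP20-KO against 0.0511 to 0.509 in WT, and the neuronal genes MAP2 and SYT1 and the smooth muscle actin gene ACTA2 did not pass (-1.07, -0.14 and 1.37). MAP2 had 0.430, 0.878 and 0.855 in CFAP20-KO against 1.11, 2.41 and 1.36 in WT, and ACTA2 had 2.89, 0.935 and 1.03 in CFAP20-KO against 0.394, 0.321 and 0.923 in WT. Neither gene overlapped between groups, MAP2 being lower in every CFAP20-KO library and ACTA2 higher, by a narrow margin within run 3. Summed over the 4, the markers of other cells had 4.51 to 5.33 in CFAP20-KO against 3.82 to 6.77 in WT, led by SYT1 or ACTA2 in CFAP20-KO and by SYT1 in WT, and none of the 4 was at 0. Their part in the differences of the 6 genes was not tested. CFAP20 itself was not among the genes placed in windows and was not analysed here.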

How the data were processed

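The members and lists were chosen with earlier results of these data known. BrU-seq signal of 6 libraries (3 CFAP20-KO, 3 WT) and splice indices of 7 (with 1 rescue) were analysed. The deposited tables hold signal, coverage of the transcribed strand in bins of 200 bp up to 100000 bp from replication origin centres, per the file headers. The authors scaled each library to whole multiples of 1 step, relative to what was not stated. The authors' splice table holds a fraction per intron, and its deposited difference scores equalled the column differences to within 3.8e-08. Per the submitters' processing notes, genome hg38 was used with STAR 2.7.7a, SAMtools 1.11, HOMER 4.8.2, R 4.0.5, Trim Galore 0.6.5 and FastQC 0.11.9.

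Protein-coding genes of GENCODE (canonical transcript, over 3000 bp, with 2000 bp free of other coding genes of their strand) were placed in windows of their strand among 2032 selected origins, up to 100000 bp from the start and with at least 10000 bp inside. This placed 2083 of 14900 genes. Signal from a gene on the opposite strand is not counted, unless strand marking was imperfect. The pseudocount 0.0832 is the 10th percentile of non-zero values, and understates changes of low genes. Genes whose mean was below it were not tested. Steps are not reads, so count models and counting intervals were not used. CFAP20-KO was compared with WT by limma 3.58.1 in R 4.3.3 (trend, robust, statmod 1.5.0) with Benjamini-Hochberg adjustment over all features at 0.05, tested on simulated data. Alternatives were other pseudocounts and filters, centring, the first 3 kb, bins outside exons, leaving out each library, run and replicate number as covariates, and CFAP20-KO replicates 2 and 3 averaged. Same-numbered libraries correlated in their deviations from group means at 0.544, 0.117 and 0.283 for the later-to-earlier ratio and at 0.508, 0.207 and 0.214 for the splice index, above 0.1, so by that threshold the numbers were taken as pairs for these 2 measures. The replicate 2 libraries belong to different runs, and CFAP20-KO replicate 2 correlated more closely with WT replicate 3 of its own run (0.306 and 0.250) than with WT replicate 2, so results with run as a covariate are given beside those with the block. Named genes were the 6, from each list every gene that passed with run as a covariate and up to 3 others of the highest signal, for each of the 6 the gene on another chromosome with the highest correlation, and the 2 tested neighbours of LAMB1 on each side; 2 genes that this rule selects are not reported here. TGF-beta pathway, integrin, collagen, protease, proteoglycan, microfibril and basement membrane genes formed the 7 matrix lists. The start-site windows were not used here, because their identifiers could not be paired with gene names.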

Additional observations from a re-analysis of the deposited data

How the results depend on the processing

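With replicate numbers as a block, 166 genes passed for body signal (97 higher, 69 lower) and 7 for the later-to-earlier ratio. With run as a covariate 191 and 63 did, with CFAP20-KO replicates 2 and 3 also averaged 130 and 69, and with libraries also centred 159 and 201, where 60 introns passed for the splice index. The 2 combined settings were chosen after seeing the data. Each of the 3 measures called 0 features in its other settings, among them leaving out each library in turn (range 0 to 0), and the replicate block called 0 introns. For body signal the same-numbered libraries correlated at 0.834, 0.576 and 0.039 for replicates 1, 2 and 3. The value for replicate 3 lay below the threshold for pairs, so the numbers were not taken as pairs for body signal. The replicate 1 libraries share run 1 and the replicate 3 libraries share run 3, while the replicate 2 libraries belong to different runs. Of the 40 matrix list genes 13 passed with the replicate block and 10 with run as a covariate. With run as a covariate, 12 passed when CFAP20-KO replicates 2 and 3 were also averaged, and 8 when libraries were also centred. In every other setting 0 passed. In the same order, 166, 191, 130 and 159 of all 1756 genes passed. Each matrix list count includes genes chosen by this same difference, so the counts are no test of the lists.

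The body difference kept its direction in 17 of 17 alternatives for LAMB1 (-1.46 to -1.06), FBN1 (0.61 to 1.10), MMP2 (1.02 to 1.65), SPOCK1 (1.06 to 1.58) and EDIL3 (0.94 to 1.41). It ran from -0.45 to 0.39 for ADAMTS1. The genes other than ADAMTS1 were chosen by this difference and their groups did not overlap. Leaving out a library could therefore not turn its direction, and the kept direction is no support for it. The later-to-earlier difference of FBN1 ran from 0.43 to 0.76 and passed in 1 of 15 alternatives, run with centred libraries (0.51, limma adjusted p = 0.0368). That of SPOCK1 turned to -0.21 with a pseudocount of 1.

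Leaving out 1 library moved that difference between -0.46 and 0.00833 for LAMB1, -0.12 and 0.23 for SPOCK1, and -0.86 and 0.0103 for EDIL3. It moved the splice index difference between -0.0856 and 0.165 for FBN1 intron 1, -0.0115 and 0.0402 for intron 23 and -0.00629 and 0.104 for intron 24, between -0.0612 and 0.0164, -0.0751 and 0.00728, -0.126 and 0.0602, -0.0552 and 0.0603, -0.0956 and 0.0272, -0.0242 and 0.00798, and -0.0686 and 0.0606 for MMP2 introns 2, 3, 4, 7, 8, 9 and 11, and between -0.00134 and 0.103, -0.0212 and 0.0983, and -0.00249 and 0.0222 for ADAMTS1 introns 2, 4 and 6. FBN1 intron 1 was at -0.0570 with replicates 2 and 3 averaged. With run as a covariate, alone, with averaging and with centring, FBN1 intron 23 was at -0.00851, -0.0112 and -0.0244 and MMP2 intron 11 at 0.0422, 0.0451 and 0.0263, and with centring ADAMTS1 intron 6 was at -0.0134. None of these splice differences passed in any setting, and the cause of the turns was not tested. Leaving out CFAP20-KO replicate 1 turned the 7 MMP2 introns and the 3 ADAMTS1 introns, and the FBN1 introns turned without CFAP20-KO replicates 2 or 3 or WT replicates 1 or 2. MMP2 introns 7 and 11 and ADAMTS1 intron 6 also turned without WT replicate 2, and MMP2 intron 11 without CFAP20-KO replicate 2. The number of libraries and the unknown depth per intron limit the precision.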
